A study of Mus musculus with 4 samples.

Results

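Chimeric eCLIP-seq of mouse plantaris muscle was examined for 9 genes of translation elongation and initiation, Eef1a1, Eef1a2, Eef2, Eif4a1, Eif4a2, Eif4g1, Eif4g2, Eif4g3 and Pabpc1. The assay precipitates Ago2, which carries miRNAs to their targets, and ligates the miRNA to the RNA it sits on, so that each chimeric read names a miRNA and a place on a target. The methods also describe a form specific to miR-1, in which a miR-1 primer amplifies the cDNA. Whether the libraries used here passed through that step is not given in the sources used here. Each of them named 560 miRNAs. The unit of the data was a line, which is 1 miRNA in 1 peak with the number of its chimeric reads. Every line that overlapped the RefSeq span of a listed gene (GRCm38) on the strand of that gene was taken, whichever miRNA it named. This gave 393 of 93468 lines in the MOV control library and 422 of 100897 lines in the MOV mimic library.

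Both libraries came from plantaris of 5-month-old male C57BL/6J mice after 10 days of mechanical overload (MOV), a surgery in which part of the synergist muscles is removed. The MOV control muscle, a left plantaris, had received a lentivirus with a scramble control, and the MOV mimic muscle, a right plantaris, a lentivirus that makes a miR-1a-3p mimic. Both viruses carried a mouse CMV promoter and a TurboGFP reporter, so the virus was not restricted to muscle fibres by its promoter. The series has 4 libraries, 1 per group, and the 2 input libraries were not analysed here. With 1 library per group there was no replicate and no test between conditions, so a difference below is one between these libraries.

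Translation elongation factors bring aminoacyl-tRNA to the ribosome and move the ribosome along the mRNA. Initiation factors of the eIF4F complex bind the cap, unwind the leader and recruit the small ribosomal subunit, and the poly(A)-binding protein joins the tail of the mRNA to that complex. Skeletal muscle is known to switch from Eef1a1 to Eef1a2 as it matures, and its growth under load depends on protein synthesis. A miRNA finds its targets mainly through its seed, bases 2 to 8, and the muscle miRNAs miR-1a-3p and miR-206-3p belong to 1 family, as do miR-133a-3p and miR-133b-3p.

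The mature miRNAs that follow held the largest sites of the 9 genes, or a site described below, and are given from RefSeq (GRCm38), 5′ to 3′, with the seed in capitals.
miR-206-3p: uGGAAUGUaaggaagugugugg
miR-133b-3p: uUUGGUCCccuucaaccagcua
let-7a-5p: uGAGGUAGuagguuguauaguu
let-7c-5p: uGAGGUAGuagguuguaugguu
miR-23a-3p: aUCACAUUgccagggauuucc
miR-378b: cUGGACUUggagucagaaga
miR-378c: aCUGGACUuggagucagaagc
miR-26a-5p: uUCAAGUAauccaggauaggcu
miR-27a-3p: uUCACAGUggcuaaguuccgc
miR-22-3p: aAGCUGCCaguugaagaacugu
miR-139-5p: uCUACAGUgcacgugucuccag
miR-199a-3p: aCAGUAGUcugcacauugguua
miR-199b-3p: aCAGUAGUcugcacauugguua
miR-703: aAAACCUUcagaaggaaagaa
miR-1a-3p, miR-133a-3p, miR-23b-3p and miR-378a-3p are named only.

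Sites that pair with a whole seed were looked for in the protein-coding transcript with the longest coding sequence of each gene (GENCODE M1). Positions count from 1 at the transcript's 5′ end and are not the genome positions of the peaks. The 6 stretches that follow are examples, and other matches of the same kind are not printed. For each, a miRNA of that family led a site on the same gene or held part of it. The capitals mark the match to bases 2 to 8 of the miRNA.
Eif4g2, let-7, 3′ UTR: tgcctgtatttCTACCTCtagtaatgggct
Eif4g2, miR-133, coding sequence: ttcttgacaatGGACCAAagacgatcaatc
Eif4g2, miR-139-5p, 3′ UTR: caacactgaatACTGTAGagatgcactttg
Eif4g2, miR-26, 3′ UTR: ttgctcagtaaTACTTGAgttgttgcaata
Eef1a2, miR-23, coding sequence: atgtcgggttcAATGTGAagaatgtgtccg
Eif4g3, miR-1/miR-206, coding sequence: tgagttcgcctACATTCCttagagctttaa
A match is a description of the letters. Of 22611 such transcripts, 18.5% held the let-7 letters CTACCTC, 17.4% the miR-133 letters GGACCAA, 13.4% the miR-139-5p letters ACTGTAG, 12.0% the miR-26 letters TACTTGA, 21.8% the miR-23 letters AATGTGA and 16.2% the miR-1/miR-206 letters ACATTCC, searched on the sense strand alone.

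The control library held 232408 chimeric reads and the mimic library 259207, of which the 9 genes took 0.408% (95% exact binomial interval 0.382 to 0.435%) and 0.365% (0.342 to 0.389%). These were 948 and 947 reads on 60 and 64 peaks. Divided by the library totals, the mimic to control ratio was 0.896 (exact conditional binomial interval 0.818 to 0.981), whereas on reads as deposited it was 0.999. The interval reached 1 once Pabpc1 was left out (0.914, 0.834 to 1.003, chosen after seeing the data) or Eif4g2 was (0.911, 0.812 to 1.02). All intervals rest on reads rounded to whole numbers and cover counting error only, since neither animals nor library preparations were repeated. Lines under 1 read made up 55.7% of the lines in the control against 60.4% in the mimic, and the 53 and 54 lines of at least 3 reads held 70.7% and 69.0% of the reads. The 9 listed markers of the skeletal muscle fibre all had reads, with 16.2% of all reads in the control library and 19.0% in the mimic, and the 5 fibroblast and matrix markers had 1.80% and 1.59%. Summed markers of leukocytes, endothelium, erythrocytes and satellite cells stood at 0.0419% or less each, with Cd68, Vwf, Alas2, Pax7 and Myf5 at 0 in both libraries. In whole muscle, fewer cells of a type and less RNA per cell cannot be told apart, and the part of the muscle fibre share in the values below was not tested.

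The genes differed more from each other than between the libraries. Per kb of transcript and 100000 chimeric reads, Eef1a2 stood highest with 50.8 reads in the control against 51.1 in the mimic, followed by Eif4g2 with 28.9 and 25.1. The next levels on that scale were 17.9 and 14.0 for Eef2, 14.9 and 15.0 for Eef1a1, and 9.50 and 10.6 for Eif4a2. Pabpc1 had 5.62 and 2.41, Eif4g1 3.64 and 3.13, and Eif4g3 2.60 and 2.37, and Eif4a1 was lowest with 0.593 and 0.330. The intervals of Eef1a2 and Eif4g2 overlapped neither each other nor any other gene. Neighbours further down that order did overlap, as Eef2 with Eef1a1 and Eif4g1 with Eif4g3 did in both libraries. These levels describe reads captured with a miRNA, not the amount of each mRNA.

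**Figure D1:**
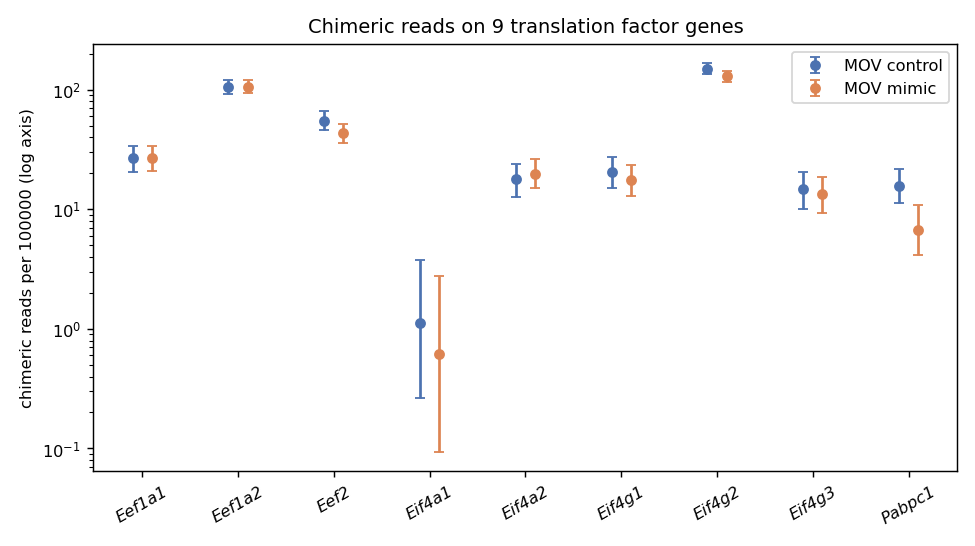
Chimeric reads per 100000 of the library on each gene (log axis, not divided by length), with points for the MOV control and MOV mimic libraries and bars for 95% Poisson intervals of the reads. The points of a gene lie close together except for Pabpc1, with 15.8 in the control library and 6.79 in the mimic, and for Eif4a1, whose 2.59 and 1.61 reads give the widest bars.

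Pabpc1 was the only one of the 8 genes with at least 20 reads summed that was 1.5-fold or more apart between the libraries. None was at least 1.5-fold higher in the mimic, where 13.3% of the 2729 genes with at least 20 reads were, and 1 was at least 1.5-fold lower, where 17.7% were. The median ratio was 0.891 over the 8 genes and 0.950 over all 2729.

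**Figure D2:**
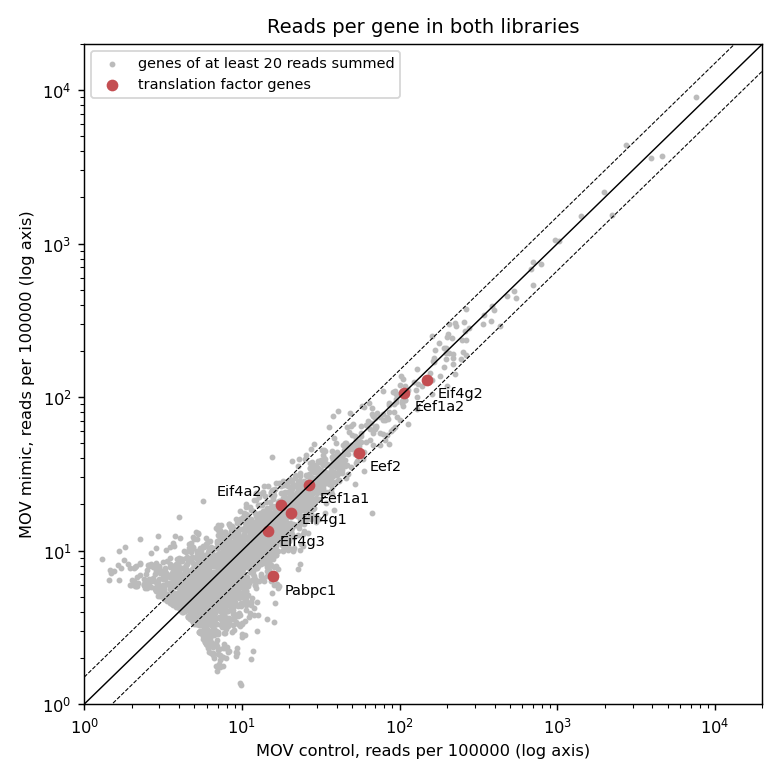
Reads per 100000 of each gene in the MOV control (x axis) and MOV mimic (y axis) libraries, both log axes, for the 2728 genes of at least 20 reads summed and above 0 in both. The full line marks equal levels and the dashed lines 1.5-fold, and of the 8 labelled genes Pabpc1 alone lies outside the dashed lines.

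Among the elongation factors, Eef1a2 carried 246 reads in the control against 276 in the mimic (ratio 1.01, 0.844 to 1.20 after division by totals). Eef1a2 encodes the form of eEF1A of mature muscle and neurons, which delivers aminoacyl-tRNA to the ribosome. All reads of the control fell on 4 sites that the mimic shared, where a site joins peaks of both libraries that overlap by at least 50% of the shorter peak. Both sites nearest the start of the gene were led by miR-133. The first, chr2:181155274-181155363, had 40.1 reads in the control library and 65.8 in the mimic, of which miR-133 held 90.2% and 86.3%. The second, chr2:181153665-181153779, had 98.5 and 81.4 reads, with 72.5% and 58.5% from miR-133. The miR-133a-3p lines there stood on opposite sides of equality. At the first site they had 33.1 reads in the control against 50.8 in the mimic (ratio 1.38, 0.877 to 2.22), and at the second 62.4 and 41.0 (ratio 0.589, 0.390 to 0.894). Over the whole gene miR-133 had 124 and 119 reads.

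The other large sites of Eef1a2 lay side by side further into the gene and had different miRNAs. One at chr2:181149826-181149899 was led by miR-378a-3p, with 27.4 reads in the control library and 12.4 in the mimic (ratio 0.405, 0.184 to 0.813). Its neighbour at chr2:181149733-181149832 was led by miR-23, with 41.0 and 55.6 reads. There miR-23a-3p had 28.0 reads in the control against 30.7 in the mimic, and miR-23b-3p had 13.1 and 24.9. The miR-23 family made up 18.3% of the reads of Eef1a2 in the control library and 23.8% in the mimic, against 2.68% and 2.55% of all reads. The coding sequence of Eef1a2 held 1 match to the miR-23 seed, at positions 1297 to 1303, printed above. The letters of the miR-378c seed, AGTCCAG, were found in its 3′ UTR at 1941 to 1947, and in 22.3% of all transcripts. The miR-23 and miR-378c matches lie too far apart for both to stand in the adjoining sites. Which site, if any, holds either match was not determined. For miR-133, which led the gene, no match to bases 2 to 8 or to bases 2 to 7 was found in the Eef1a2 transcript. Both remaining sites of the gene, nearer its end, had reads in the mimic alone, 15.1 at one led by miR-23 and 8.02 at one led by miR-378b.

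Eef1a1, the eEF1A form of most other cells, had 62.0 reads in the control against 69.7 in the mimic (ratio 1.01, 0.709 to 1.45). It too was led by miR-133, with 23.7 reads in the control library and 34.7 in the mimic. Its miR-23 reads numbered 7.07 and 5.56. The makeup of miRNAs on the 2 genes had a cosine of 0.876, where 1 means equal shares. Their coding sequences were 80.1% identical with a longest identical stretch of 23 nt, and how reads that match both genes were counted is not given in the sources used here. At its last site, chr9:78478534-78478621, most of the 19.9 and 17.7 reads were those of miR-133a-3p, 12.6 and 11.9, and of miR-703, 5.21 and 5.25. All 21 bases of miR-703, printed above, stand in the Eef1a1 transcript itself in the sense direction, at positions 1636 to 1656 in the 3′ UTR. Of all reads named miR-703, 52.3% in the control against 46.0% in the mimic lay on Eef1a1. Without the miR-703 lines the ratio of Eef1a1 was 1.04.

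Eef2, which moves the ribosome by 1 codon after each peptide bond, had 129 reads in the control library and 112 in the mimic (ratio 0.781, 0.599 to 1.01). Of these, miR-133 held 54.0 and 45.9 reads. The site closest to the end of the gene, chr10:81182322-81182409, had 29.2 and 28.9 reads, with miR-133a-3p at 21.9 in both libraries. A site in the middle of the gene, chr10:81180153-81180281, was also led by miR-133, with 34.9 and 33.6 reads in all. Smaller sites were led by miR-15/16, with 15.4 and 15.8 reads in all, and by miR-1/miR-206, with 26.0 and 19.3. At the latter, miR-206-3p had 3.18 reads in the control against 7.16 in the mimic, and miR-1a-3p had 5.60 and 3.11, which is the opposite order to the Eif4g2 site described below, on far fewer reads. No match to the miR-133 seed was found in the Eef2 transcript searched.

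Among the subunits of eIF4F, the RNA helicase eIF4A is encoded by Eif4a1 and Eif4a2. Eif4a2 had 41.4 reads in the control against 51.6 in the mimic (ratio 1.12, 0.741 to 1.76), and miR-133 made up 75.9% and 71.9% of them, the highest share among the 8 genes with at least 20 reads. Its largest site, chr16:23110586-23110684, had 23.6 reads in both libraries, of which 23.5 and 21.5 were from miR-133. Eif4a1 had 2.59 reads in the control on 1 peak, where miR-221-3p had the most with 1 read, and 1.61 in the mimic on another, with 1.45 from miR-133a-3p, so the libraries shared no site of it. Its transcript held 2 matches to the miR-133 seed, 1 in the coding sequence and 1 in the 3′ UTR, and Eif4a2 held none. The coding sequences of both genes were 78.1% identical, with a longest identical stretch of 20 nt. At such counts a difference in miRNAs on Eif4a1 between the libraries was not detectable.

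The scaffold eIF4G holds the cap-binding protein, the helicase and eIF3 together. Of the 3 genes of its group, Eif4g2 and Eif4g3 were led by the miR-1/miR-206 family and Eif4g1 by miR-23, in both libraries. Eif4g2 encodes a relative of eIF4G that lacks the part that binds the cap-binding protein. It had the most reads of the 9 genes, 348 in the control library and 337 in the mimic (ratio 0.869, 0.745 to 1.01). Of the 7812 genes with reads in both libraries it ranked 60th by their sum, and Eef1a2 73rd. There were 3 large sites, each with its own miRNA family, and in both libraries they had the same order of size.

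The largest site of Eif4g2 was at chr7:111072567-111072695, with 173 reads in the control against 184 in the mimic. The miR-1/miR-206 family held 138 reads of it in each library, but the members differed. miR-206-3p had 87.4 reads in the control library and 64.9 in the mimic (ratio 0.665, 0.478 to 0.934), and miR-1a-3p had 50.5 and 73.1 (ratio 1.30, 0.885 to 1.87). Over the whole gene, the share of miR-1a-3p in the reads of both miRNAs was 41.7% (33.9 to 50.1%) in the control and 54.4% (46.0 to 62.4%) in the mimic. Among all lines of the libraries it was 64.2% (63.8 to 64.7%) and 71.3% (70.9 to 71.7%). The share on Eif4g2 thus lay below that of all lines in both libraries, and higher in the mimic in both cases. No match to the whole miR-206-3p seed was found in the Eif4g2 transcript. The shorter match to bases 2 to 7, CATTCC, stood in the 3′ UTR at positions 3135 to 3140, and in 44.2% of all transcripts.
Eif4g2, miR-1/miR-206, bases 2 to 7, 3′ UTR: ctgcgaaaattCATTCCgctgtaacgtttt

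**Figure D3:**
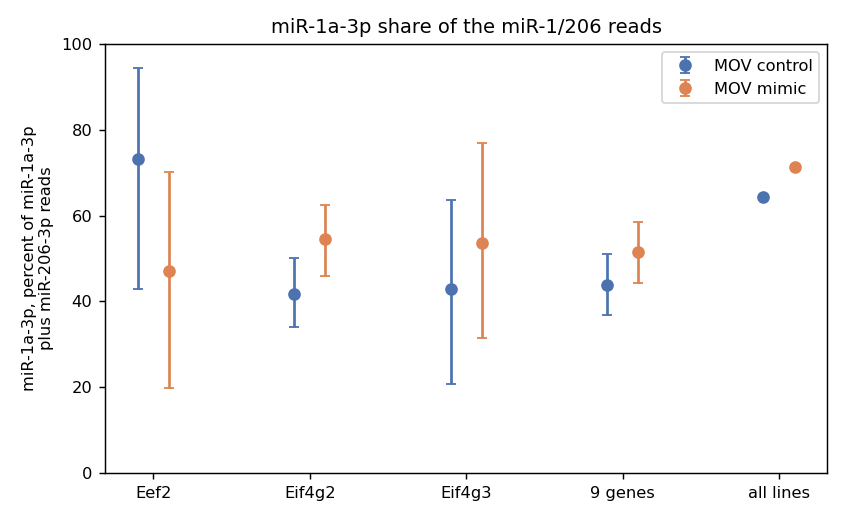
Share of miR-1a-3p in the reads of miR-1a-3p and miR-206-3p (percent, y axis) on Eef2, Eif4g2, Eif4g3, the 9 genes together and all lines, for the MOV control and MOV mimic libraries with 95% exact binomial intervals. For the 9 genes the points are 43.9% and 51.5% with overlapping intervals, both below those of all lines at 64.2% and 71.3%.

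The same site of Eif4g2 also held miR-199-3p reads, 12.3 in the control under the name miR-199b-3p and 22.9 in the mimic under the name miR-199a-3p. Both names stand for 1 mature sequence, as printed above. The control library used only the name miR-199b-3p, on 1710 lines, and the mimic library only miR-199a-3p, on 1708 lines, so the names were joined here.

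The second large site of Eif4g2, chr7:111072158-111072272, was led by let-7, with 50.3 reads in the control against 50.8 in the mimic of 66.5 and 61.3 in all. let-7c-5p had the most of them, 14.7 and 18.0, followed by let-7a-5p with 9.32 and 10.6. The third, chr7:111077226-111077326, had 62.2 and 49.2 reads, of which miR-133 held 94.2% and 93.8%. Its miR-133a-3p reads were 32.2 and 30.7, and its miR-133b-3p reads 26.4 and 15.4 (ratio 0.525, 0.255 to 1.01). The seeds of both families had 1 match each in the transcript, that of miR-133 at positions 1287 to 1293 in the coding sequence and that of let-7 at 3531 to 3537 in the 3′ UTR. A smaller site, chr7:111072311-111072355, lay between the miR-1/miR-206 site and the let-7 site. It held miR-139-5p with 6.89 and 3.51 reads and miR-26a-5p with 2.69 and 3.77. Matches to the seeds of miR-139-5p and miR-26 stood in the 3′ UTR at 3403 to 3409 and 3430 to 3436. A further miR-139-5p match stood in the coding sequence at 1233 and a further miR-26 match in the 3′ UTR at 3807.

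**Figure D4:**
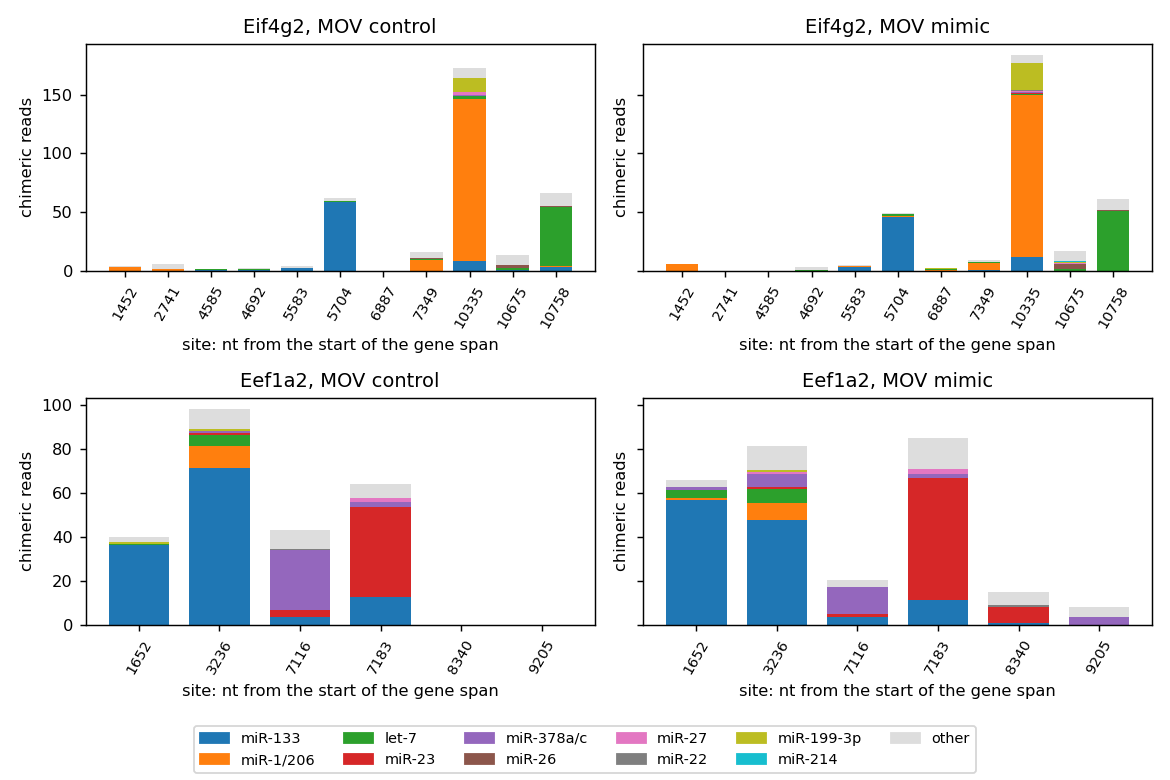
Chimeric reads (y axis) at each site of Eif4g2 (top) and Eef1a2 (bottom) in the MOV control (left) and MOV mimic (right) libraries, in order along the gene with evenly spaced bars labelled by nt from the start of the gene span, and coloured by miRNA family. The site of Eif4g2 at 10335 nt is mostly miR-1/miR-206, that at 10758 nt let-7 and that at 5704 nt miR-133 in both libraries, and Eef1a2 has neighbouring miR-378a/c and miR-23 sites at 7116 and 7183 nt.

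Eif4g3, a further eIF4G form, had 34.2 reads in the control library and 34.7 in the mimic (ratio 0.912, 0.559 to 1.53). The miR-1/miR-206 family led it with 64.5% and 57.4% of the reads. They lay on several small sites, of which chr4:138084801-138084906 had 7.84 and 7.60 reads and chr4:138201921-138202009 had 7.92 and 5.99. The second family in the control was miR-214, with 9.80 reads against 1.82 in the mimic, and in the mimic it was miR-133, with 6.66 reads against 0.974 in the control. Eif4g3 was the only one of the 9 transcripts with a match to the whole miR-1/miR-206 seed, at positions 4956 to 4962 in the coding sequence. The makeup of miRNAs on Eif4g2 and Eif4g3 had a cosine of 0.843.

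Eif4g1, the main eIF4G scaffold, had 47.8 reads in the control against 45.7 in the mimic (ratio 0.858, 0.561 to 1.32), spread over 15 sites of which 6 were shared. With only lines of at least 3 reads, of which the control had 3 and the mimic 1, the ratio was 0.339 and its interval (0.112 to 0.958) excluded 1. The site with the most reads over both libraries, chr16:20679406-20679565, had 8.73 and 15.7 reads and was led by miR-23 in both. The site at chr16:20682658-20682740, led by miR-27, had 9.95 and 4.38 reads and was the largest in the control. Over the whole gene there was little of the muscle miRNAs, with 2.75 and 1.93 reads of miR-133 and 2.03 and 2.86 of miR-1a-3p with miR-206-3p. Also over the whole gene, the miR-23 family had 9.98 and 9.04 reads, miR-26 7.82 and 4.98, and miR-27 8.21 and 3.30. The cosine with Eif4g2 was 0.216 and that with Eif4g3 was 0.250. No match to the whole seed of miR-23 or of miR-26 was found in the Eif4g1 transcript. Its coding sequence held 1 match to the miR-27 seed, ACTGTGA, at positions 2903 to 2909, and 27.0% of all transcripts held 1 or more.

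Pabpc1, the cytoplasmic poly(A)-binding protein, had 36.8 reads in the control library and 17.6 in the mimic (ratio 0.429, 0.234 to 0.786). With only lines of at least 3 reads the ratio was 0.355 and its interval (0.0943 to 1.01) included 1. Of its 8 sites, 3 were shared and 4 had reads in the control alone. The largest of the latter, chr15:36598054-36598126, had 11.3 reads in the control, 9.11 of them from miR-133, and was listed at 0 in the mimic. Over the gene miR-133 had 14.8 reads in the control against 2.49 in the mimic (ratio 0.151, 0.0133 to 0.514). By contrast, miR-22 had 5.59 and 6.85 reads, so that the leading family was miR-133 in the control and miR-22 in the mimic. The Pabpc1 coding sequence held 1 match to the miR-22 seed, GGCAGCT, at positions 1697 to 1703. Of all transcripts, 30.5% held those letters.

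**Figure D5:**
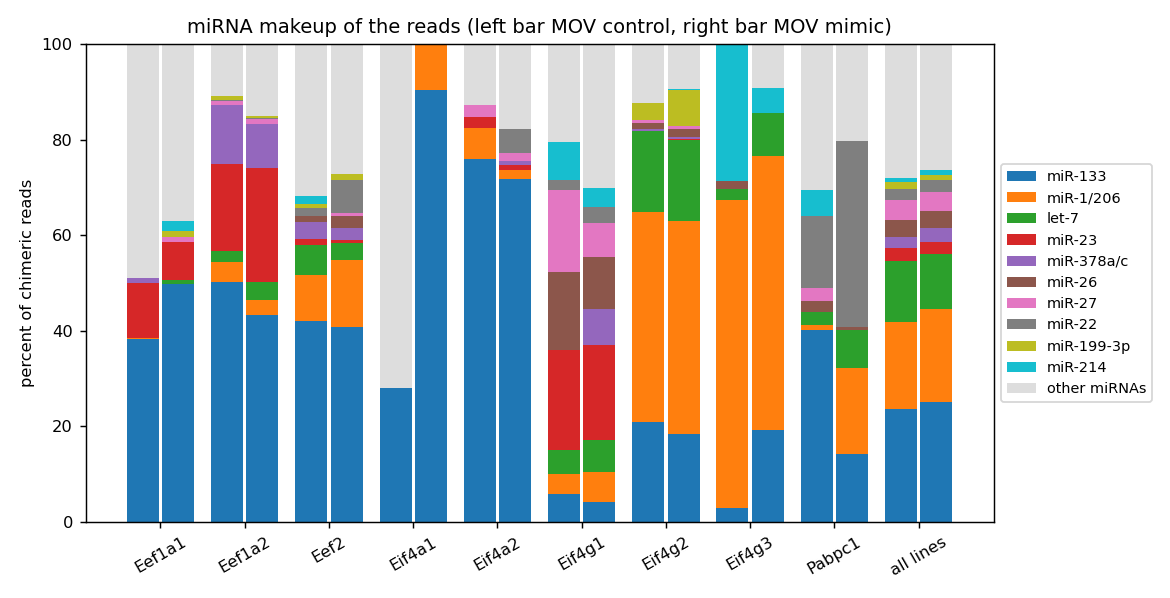
Percent of the chimeric reads of each gene that belong to 10 miRNA families (coloured) and to other miRNAs (light grey), with the MOV control as the left and the MOV mimic as the right bar of each pair, and all lines of the libraries at the far right. miR-133 leads the elongation factor genes and Eif4a2, miR-1/miR-206 leads Eif4g2 and Eif4g3, and the bars of Eif4a1 rest on 2.59 and 1.61 reads.

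Across the 9 genes, miR-133 held 34.3% of the control reads (31.3 to 37.4%) and 32.9% of the mimic reads, against 23.6% and 25.1% of all reads. For miR-1/miR-206 the shares were 21.4% in both libraries (18.8 to 24.1% in the mimic) against 18.4% and 19.4% of all reads. Most miR-1/miR-206 reads of the 9 genes lay on Eif4g2, whose largest site alone held 138 in each library. By gene, the miR-1/miR-206 share was above that of all reads on Eif4g2 (43.9% and 44.6%) and Eif4g3 (64.5% and 57.4%). On each of the other genes it was below that of all reads in both libraries. For let-7 the shares were 8.12% and 8.32% against 12.7% and 11.6% of all reads. With single miRNAs counted apart, miR-133a-3p had the most reads in both libraries on 4 genes, Eef1a1, Eef1a2, Eef2 and Eif4a2, all of which were among the 8 genes with at least 20 reads. Of all 2729 such genes, 19.1% were led by miR-133a-3p in both. None of these 4 transcripts held a match to the whole miR-133 seed, which stood only in those of Eif4a1 and Eif4g2 among the 9. The miR-1a-3p reads over the 9 genes numbered 89.0 in the control library and 104 in the mimic (ratio 1.05, 0.782 to 1.41), while over all lines the ratio was 1.17 (1.16 to 1.19).

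The sites with most reads were found in both libraries. Of 84 sites, 38 were shared, and these held 91.9% of the reads in the control against 89.9% in the mimic. Sites were not counted for other genes, so whether these shares are particular to the listed genes was not tested. The highest site of the control alone had 11.3 reads, that of Pabpc1 above, and the highest of the mimic alone had 15.1, on Eef1a2. Counted by lines with the same miRNA, 38.2% of the control lines (33.3 to 43.2%) overlapped a mimic line, compared with 35.5% of the other lines of the control library. For lines of these genes under 1 read the share was 22.4%, and for all other control lines of that size it was 23.3%. From 1 to under 3 reads it was 42.1% against 38.9%, from 3 to under 10 it was 94.6% (35 of 37) against 80.3%, and at 10 or more it was 93.8% (15 of 16) against 97.1%. The rise with read number was thus seen over all lines. Of the 23 shared pairs with at least 5 reads in each library, 6 were higher in the mimic after division by totals, with a median ratio of 0.867, and the interval of 3 excluded 1. The same count was not made for shared lines of other genes, so whether it is particular to these genes was not tested. The median ratio by gene over all 2729 genes of at least 20 reads was also below 1, at 0.950.

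The gene whose makeup of miRNAs was most like each of these, among genes of at least 100 reads summed, was found by the cosine over single miRNAs in both libraries. For Eif4a2 it was Myh2, a myosin heavy chain of fast fibres, at 0.987, and for Eef1a2 it was Pvalb, the calcium buffer parvalbumin, at 0.958. For Eef2 it was Tnni2, troponin I of fast fibres, at 0.952. For Eif4g2 and Eif4g3 it was Dmd, which encodes dystrophin, at 0.939 and 0.884. The closest gene was Hspa4 for Eef1a1 at 0.924, Vcp-rs for Pabpc1 at 0.823 and Gm10250 for Eif4a1 at 0.764. The lowest of these values was that of Eif4g1, 0.713 with Tnrc6a, a partner of Ago proteins. The median cosine of each of the 9 genes with all genes compared lay between 0.276 and 0.484. The cosine of a gene's control reads with its mimic reads was 0.488 for Eif4a1, 0.602 for Pabpc1, 0.819 for Eif4g3 and 0.966 for Eif4a2. These were below the cosine with the closest gene, whereas those of Eef1a1, Eef1a2, Eef2, Eif4g1 and Eif4g2 were above it. Eif4a1 rests on 2.59 and 1.61 reads. Each closest gene is the highest of many compared, and whether it stands out from chance was not tested.

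A wider list of translation genes gave the surroundings of these 9. Of 82 listed genes, 80 were matched, 51 had at least 1 line in each library and 14 had none in either. Together they held 975 and 977 reads. Of the 30 with at least 20 reads summed, 3 were at least 1.5-fold higher in the mimic and 4 at least 1.5-fold lower, against the 13.3% and 17.7% of all genes given above. In both libraries miR-133a-3p led 8 of these 30 genes, against 19.1% of all 2729 genes.

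The listed genes with the most reads were Etf1, Larp1, Mknk2, Ddx3x and Paip2. Etf1, the release factor that reads stop codons, had 82.6 reads in the control library and 62.8 in the mimic (ratio 0.682, 0.483 to 0.956) and was led by miR-26a-5p in both. Paip2, an inhibitor of the poly(A)-binding protein, had 64.0 and 52.7 reads, led by miR-133a-3p. Larp1, which binds mRNAs of ribosomal proteins, had 58.4 and 64.7 reads, and the helicase gene Ddx3x 58.9 and 61.9. Mknk2, a kinase of the cap-binding protein, had 67.7 and 55.0. Among those with at least 20 reads, the highest ratios were 3.06 for Eef2k (4.56 and 15.6 reads), the kinase that inhibits eEF2, 1.78 for Gspt1 and 1.59 for Eif2ak3. The lowest were 0.441 for Rps6kb1 (20.4 and 10.0 reads), the S6 kinase, 0.525 for Eif5b and 0.578 for Eif3d. The interval of Eef2k was 1.004 to 10.0 on 20.1 reads in all, just past the minimum, and those of Gspt1, Eif2ak3, Rps6kb1, Eif5b and Eif3d included 1. The remaining gene at least 1.5-fold lower was Pdcd4, an inhibitor of eIF4A, with 43.8 and 28.7 reads (ratio 0.587, 0.357 to 0.966), named after its values were seen.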

How the data were processed

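Values were the deposited estimated counts of chimeric reads of 1 miRNA in 1 peak, not scaled to depth by the authors, mostly fractions of unstated origin. The processing notes name UMI-tools 1.1.1, cutadapt 3.2, STAR 2.7.7a, Bowtie 1.2.3, HOMER 4.11 and mm10, whereas the methods name mm9 and CLIPper. Coordinates fitted GRCm38 and count from 1. Gene spans came from RefSeq, and the strand of Eif4g2 and Pabpc1 from GENCODE by name. Exons of GRCm38 were not used here, so peaks were not placed in coding sequence or UTRs.

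Depth was 232408 and 259207 reads. Ratios are mimic over control, divided by these totals. Intervals are 95% (Poisson, Clopper-Pearson, conditional binomial). A site joins peaks that share 50% of the shorter one. miRNA families were joined by seed, or by name where no sequence was listed. Python 3.11.15, pandas 2.3.3, scipy 1.17.1 and biopython 1.88 were used, and gene ratios were tested on simulated data. Named were the 9 genes, the 3 miRNAs with the most reads on each, the top line in each library, the 3 largest rises and falls among shared lines of at least 5 reads, the most alike gene, and of the wider list the 5 with most reads and the 3 highest and lowest ratios. The members and lists were chosen with earlier results of these data known. Alternatives changed the read minimum, scaling, overlap and gene assignment.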

Additional observations from a re-analysis of the deposited data

How the results depend on the processing

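No paired analysis was possible because the design holds a single library per condition. With totals that leave out the mitochondrial chromosome and Rn18s-rs5, the share of reads in the 9 genes was 0.512% in the control against 0.456% in the mimic, and as a share of lines 0.420% and 0.418%, so that the difference seen by reads was not seen by lines. The ratio over the 9 genes was 0.999 on reads as deposited. In the other alternatives it lay between 0.856 (lines of at least 3 reads) and 0.914 (without Pabpc1, chosen after seeing the data), and its interval reached above 1 without Pabpc1 and without Eif4g2. The ratio of Eif4g1 was 0.339 with lines of at least 3 reads, and the other single-gene ratios stayed within the main interval. The 362 genes higher and 483 lower in the mimic became 78 and 119 with at least 50 reads, and 137 and 190 at 2-fold. The split of 362 to 483 turned to 516 to 344 on reads as deposited. Of the wider list, 0 higher and 1 lower (Pdcd4) were left with at least 50 reads. The overlap of lines was 78.1% with any miRNA, 48.9% for lines of at least 1 read and 71.7% for lines of at least 3. By number of lines, miR-133a-3p led 2 genes in both libraries, Eif4a2 and Pabpc1. The ratio of Pabpc1 lay between 0.355 and 0.478. Those of Eef1a1, Eef1a2, Eif4a1, Eif4a2 and Eif4g3 lay on both sides of 1 across the alternatives, with intervals that included 1 throughout. The cause of these changes was not tested. Depth limits Eif4a1, and sites under 3 reads were often seen in 1 library.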

Other observations

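The mature sequences of 543 miRNAs were searched in the 22611 transcripts, to see where else a miRNA and the gene it was ligated to carry the same letters in the sense direction. Such a full match existed for 231 pairs of gene and miRNA, of which 9 had reads in at least 1 library and 5 in both. Eef1a1 with miR-703 was the only pair among the 9 translation factor genes, with 6.21 reads in the control against 5.25 in the mimic. All reads named miR-692 lay on Ftl1, which encodes ferritin light chain, with 8.05 in the control library and 4.89 in the mimic. Vmp1, whose transcript holds miR-21a, had 6.85 and 3.30 reads of miR-21a-3p, 24.4% and 15.1% of the reads of that miRNA, but 3 and 8.20 reads of miR-21a-5p, 0.0395% and 0.0986% of its reads.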
